A study of Mus musculus with 4 samples.

Results

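The genes described here are the fibroblast growth factor (FGF) ligands, their receptors and the genes that cells switch on or keep on when they receive an FGF signal. They were chosen by name from the microarray: every gene whose symbol is Fgf or Fgfr followed by a number, together with Fgfrl1, Spry1 to Spry4, Spred1, Spred2, Dusp6, Etv1, Etv4 and Etv5. This gave 39 of the 29924 gene names on the array, carried by 66 probes. There were 18 secreted ligands, 4 intracellular relatives (Fgf11 to Fgf14), 5 receptor genes, 10 response genes, and 2 genes (Fgfr1op and Fgfr1op2) that share the prefix but encode other proteins. Symbols defined the set and no measured value entered that rule, but it was chosen with earlier results of these data known.

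The arrays profiled mouse ureters that were explanted on the day of birth (P0) and cultured for 8 d with the solvent DMSO or with 2 µM purmorphamine, an agonist that activates the sonic hedgehog (SHH) pathway through Smoothened. Control ureters came from Pparg (fl/?) littermates without Cre, and Pparg-cKO ureters from Pax2-cre/+; Pparg (fl/fl) mice, both on an NMRI background. Pax2-cre recombines in the nephric duct and its epithelial derivatives, so Pparg, which encodes a nuclear receptor, was targeted in the ureteric epithelium rather than in the mesenchyme around it. Each of the 4 groups held 2 sex-sorted pools of ureters, replicate 1 male and replicate 2 female, and each of the 4 arrays compared the DMSO and the purmorphamine pool of 1 genotype and sex. The dyes were exchanged between male and female arrays, so sex, replicate number and dye orientation cannot be told apart. How many ureters each pool held is not given in the sources used here, and p-values measure the spread between these pools. The comparisons ask what activation of SHH signaling does to the FGF genes, what loss of Pparg does to them, and whether the genotypes respond alike.

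FGF ligands are secreted proteins that bind receptor tyrosine kinases on neighbouring cells with heparan sulfate as a cofactor. The activated receptor recruits the adaptor FRS2 and drives RAS and the kinases RAF, MEK and ERK. ERK activity induces the ETS transcription factors ETV1, ETV4 and ETV5 and also the brakes of the pathway: the Sprouty and Spred proteins, which act on RAS and RAF, and DUSP6, a phosphatase that inactivates ERK. In the developing urinary tract, FGF7 and FGF10 are made by mesenchyme and act on epithelium through FGFR2. In bulk tissue, fewer cells of a type and less RNA per cell cannot be told apart.

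Levels are log2 fluorescence after background correction and normalization, and changes are log2 differences of these levels within 1 probe. Every array held 157716 spots for 39429 probes, 4 per probe. Between 66.3% and 70.5% of the spots in a channel were well above background and 0 were saturated. A probe was tested where the 2 pools of some group both had it well above background, and the brightest tested probe stands for its gene. That left 20229 genes, 34 of the 39 members among them. The ligands Fgf3, Fgf4, Fgf15, Fgf16 and Fgf20 had no such group and were not tested. The standing probe was above background in all 8 pools for 32 of the 34. A gene was called where the Benjamini-Hochberg adjusted p of limma's test, over all 27064 tested probes, was under 0.05. The only Pparg probe gave levels of 14.79 and 15.31 in the control pools and 15.55 and 15.58 in the Pparg-cKO pools with DMSO (change 0.51, SE 0.17, adjusted p = 0.209). The deleted allele can still give a transcript, so this probe does not check the deletion. Shh itself was lower in Pparg-cKO with DMSO (log2 change -2.93, adjusted p = 0.00263 by limma). With purmorphamine the hedgehog feedback targets Ptch1, Gli1 and Hhip were higher in the mean of both genotypes, by 1.20 to 1.76. Epithelial, muscle and stromal markers of the ureter were present: all 7 urothelial, all 5 smooth muscle and all 5 fibroblast and lamina propria markers were above background in all pools.

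Promoters are shown for Dusp6, Etv1 and Etv5, which with Etv4 moved together with purmorphamine. Windows of the other matched response genes are not printed. The 250 bases before the RefSeq transcription start are given on the gene's own strand for GRCm38.p6. Capitals mark GGAAGT or CGGAAG or their reverse complements, the only strings searched here for ETS factors. The shorter core GGAA that ETS factors share was not marked, and windows without capitals can hold it. The RefSeq promoter table used here was matched for 28 of the 39 members, and Etv4 was not analysed here.
Dusp6, chr10:99262981-99263230, plus strand: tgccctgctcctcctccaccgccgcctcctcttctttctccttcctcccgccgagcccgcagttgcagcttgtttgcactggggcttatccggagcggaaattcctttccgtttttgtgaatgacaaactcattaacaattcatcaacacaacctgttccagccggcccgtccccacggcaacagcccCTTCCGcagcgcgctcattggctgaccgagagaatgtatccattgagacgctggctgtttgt
Etv1, first start, chr12:38779832-38780081, plus strand: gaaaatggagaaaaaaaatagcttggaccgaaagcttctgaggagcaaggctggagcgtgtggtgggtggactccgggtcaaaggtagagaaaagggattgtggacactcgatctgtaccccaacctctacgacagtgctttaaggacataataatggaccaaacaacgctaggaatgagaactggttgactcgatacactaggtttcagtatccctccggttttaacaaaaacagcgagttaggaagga
Etv5, first start, chr16:22439571-22439820, minus strand: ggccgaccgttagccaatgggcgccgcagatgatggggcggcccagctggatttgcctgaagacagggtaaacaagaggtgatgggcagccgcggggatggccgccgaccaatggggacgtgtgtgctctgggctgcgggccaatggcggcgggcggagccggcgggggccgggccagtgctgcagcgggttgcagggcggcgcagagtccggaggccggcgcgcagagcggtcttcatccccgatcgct
Etv5, second start, chr16:22438369-22438618, minus strand: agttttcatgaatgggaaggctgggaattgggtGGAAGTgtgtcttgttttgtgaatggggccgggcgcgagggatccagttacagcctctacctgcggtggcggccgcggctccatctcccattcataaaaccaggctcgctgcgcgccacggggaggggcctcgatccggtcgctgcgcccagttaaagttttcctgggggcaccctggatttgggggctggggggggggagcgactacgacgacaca
The Dusp6 window holds 1 match on the opposite strand and the second Etv5 window holds 1 match, while the first Etv1 and first Etv5 windows hold 0. The window of a second Etv1 start, not printed here, also holds 0. Searched on both strands, GGAAGT occurs in 19.7% and CGGAAG in 13.6% of 32851 promoter windows of the same length, and either in 27.2% (CGGAAGT holds both). Of the 38 windows of the 28 matched members, which have 1 or more starts each, 9 (23.7%) hold either. The GLI letters GACCACCCA occur in 0.225% of all windows and the CRE letters TGACGTCA in 1.55%, and in 0 of the windows of the 28 members. A match is a description of letters and not of a bound site.

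Of the response genes, Dusp6, Etv4 and Etv5 were lower with purmorphamine in both genotypes. In the mean of both genotypes, 6 of the 10 were called, all lower, and all 10 had a change below 0, with a median of -0.45. Of all members, 9 of 34 were called and all 9 were lower (Fgf1, Fgf5 or Fgf13 were called higher in some alternatives), while 13.5% of all genes tested were called and 7.52% were called lower, and the median of all genes was 0.01. In control ureters 3 of 10 response genes and 4 of 34 members were called, all lower, where 1.2% of all genes were called and 0.919% lower. In Pparg-cKO ureters 4 of 10 response genes and 6 of 34 members were called, all lower, where 4.66% of all genes were called and 2.81% lower. The control and Pparg-cKO responses come from separate arrays. By limma 0 members were called for a difference between the genotypes' responses.

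Dusp6, the ERK phosphatase, had control levels of 14.05 and 13.54 with DMSO, and of 12.75 and 12.35 with purmorphamine (the male pool is given first throughout). In Pparg-cKO the levels were 14.01 and 13.99 with DMSO and 12.92 and 12.71 with purmorphamine. The highest purmorphamine pool of either genotype was below the lowest DMSO pool. Dusp6 fell by 1.25 on the log2 scale in control (SE 0.11, adjusted p = 0.0294) and by 1.18 in Pparg-cKO (SE 0.11, adjusted p = 0.0174), a 2.38-fold decrease in control. The mean over both genotypes was -1.22 (95% interval -1.42 to -1.02, adjusted p = 0.00495), and the difference between the genotypes was 0.07 (interval -0.33 to 0.46).

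The ETS factor genes Etv1, Etv4 and Etv5 were lower as well. Etv4 levels in control were 12.10 and 11.54 with DMSO and 10.77 and 9.70 with purmorphamine, and in Pparg-cKO 12.24 and 12.44 with DMSO and 10.88 and 10.56 with purmorphamine. The female control pool with purmorphamine was the lowest of the 8. Etv4 fell by 1.59 in control (SE 0.19, adjusted p = 0.046) and by 1.62 in Pparg-cKO (SE 0.19, adjusted p = 0.025). A dimmer probe of Etv4 gave changes of -0.94 (adjusted p = 0.0634) in control and -1.08 (adjusted p = 0.03) in Pparg-cKO, the same direction at a smaller size.

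Etv1 levels in control were 12.46 and 12.27 with DMSO and 11.34 and 11.07 with purmorphamine, and in Pparg-cKO 12.33 and 12.95 with DMSO and 11.55 and 11.61 with purmorphamine. It fell by 1.06 in Pparg-cKO (SE 0.16, adjusted p = 0.0401), and its change in control was -1.16 (adjusted p = 0.0552), outside the threshold. Etv5 had levels of 13.53 and 13.37 with DMSO and 12.78 and 12.48 with purmorphamine in control, and 12.93 and 13.02 with DMSO and 12.28 and 12.30 with purmorphamine in Pparg-cKO. All 3 ETS genes had every purmorphamine pool below every DMSO pool. Etv5 fell by 0.82 in control (SE 0.10, adjusted p = 0.0482) and its change in Pparg-cKO was -0.69 (SE 0.10, adjusted p = 0.0404). In the mean of both genotypes the changes were -1.11 for Etv1 (adjusted p = 0.0106), -1.60 for Etv4 (adjusted p = 0.0072) and -0.75 for Etv5 (adjusted p = 0.00944).

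With either control array left out, each of the 3 calls for response genes in control was lost. With the female Pparg-cKO array left out, 0 members were called in Pparg-cKO, and Dusp6 was -1.09 (adjusted p = 0.104). The calls of Dusp6, Etv1, Etv4 and Etv5 in the mean of both genotypes remained with any 1 array left out.

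The brakes of RAS and RAF gave smaller changes. Spry4, which encodes a Sprouty inhibitor, had control levels of 9.38 and 9.08 with DMSO and 8.56 and 8.35 with purmorphamine, and Pparg-cKO levels of 8.68 and 8.51 with DMSO and 8.05 and 8.43 with purmorphamine. The Pparg-cKO pools with DMSO lay below the control pools with DMSO. Its change with purmorphamine was -0.57 in the mean of both genotypes (SE 0.11, adjusted p = 0.0381), -0.77 in control (adjusted p = 0.104) and -0.36 in Pparg-cKO (adjusted p = 0.286). Spry4 also passed the study's fold rule in control, at least 1.5-fold the same way in both replicates with a signal over 100, which 4.88% of all genes passed there and which carries no test. Spry4 lost its call with either control array or the male Pparg-cKO array left out, with adjusted p from 0.0772 to 0.107.

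Spred1, a Sprouty-related inhibitor, had control levels of 13.16 and 13.12 with DMSO and 12.70 and 12.69 with purmorphamine, and Pparg-cKO levels of 13.12 and 13.31 with DMSO and 12.92 and 13.07 with purmorphamine. It fell by 0.33 in the mean of both genotypes (SE 0.07, adjusted p = 0.0449), a call lost with any 1 array left out. Spry1 (13.21 and 13.30 with DMSO, 13.14 and 12.97 with purmorphamine in control, 13.51 and 13.18 then 13.45 and 13.46 in Pparg-cKO) differed by -0.05 in the mean, with an interval from -0.29 to 0.20. Spry2 had levels of 8.47 and 8.13 with DMSO and 8.15 and 8.16 with purmorphamine in control, and 8.30 and 8.20 then 8.50 and 7.86 in Pparg-cKO, with overlapping groups. Its mean change was -0.11 (interval -0.43 to 0.20). Spry3 and Spred2 were not called, at -0.10 and -0.20.

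**Figure D1:**
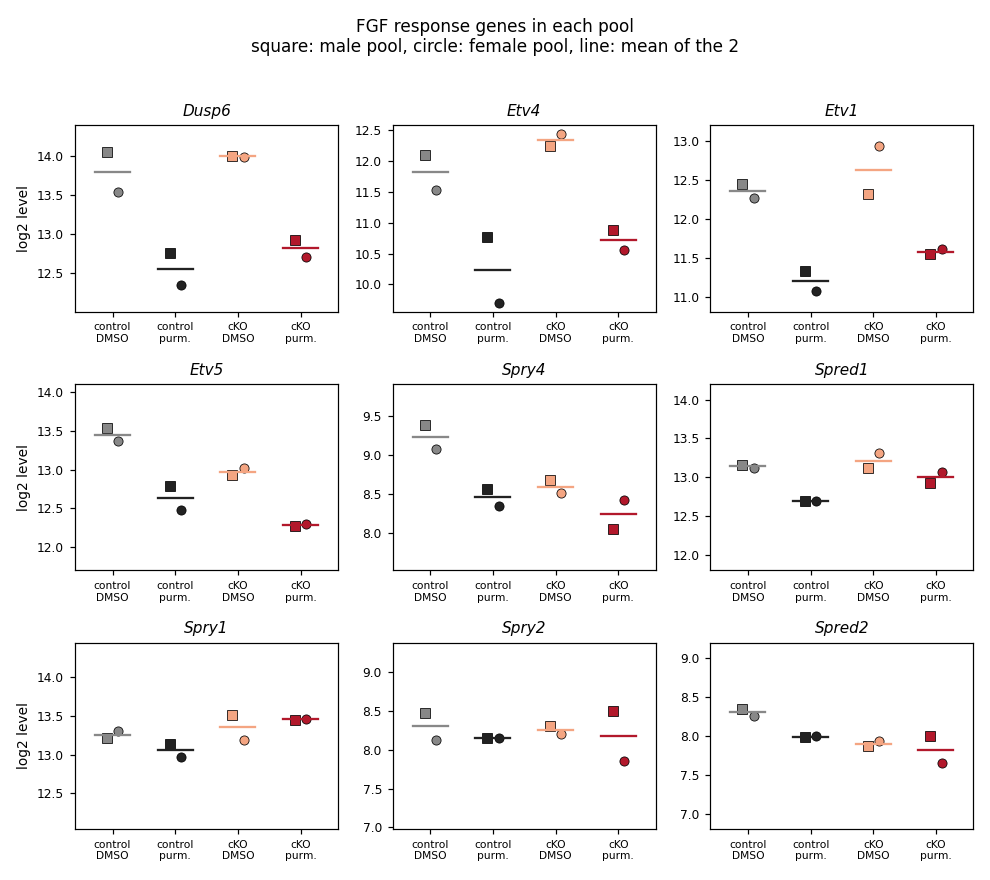
Log2 level of 9 FGF response genes in each pool, by genotype and medium, with 1 square per male and 1 circle per female pool and a line at their mean. For Dusp6, Etv1, Etv4 and Etv5 all 4 purmorphamine pools sit below all 4 DMSO pools, while the Spry1 and Spry2 groups overlap.

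Among all members, 6 of 34 had all 4 purmorphamine pools below all 4 DMSO pools (Dusp6, Etv1, Etv4, Etv5, Spred1 and the ligand Fgf9), as did 9.39% of all genes. In the opposite order stood 3 members (Fgf1, Fgf5 and Fgf13), as did 9.91% of all genes.

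Of other genes that ERK induces, a list of 22 of which 21 were tested, 10 were called lower and 0 higher with purmorphamine in the mean of both genotypes, where 7.52% of all genes were called lower. The list was chosen with earlier results of these data known, and its calls were not rechecked with an array left out. In control 2 and in Pparg-cKO 4 were called, all lower, where 0.919% and 2.81% of all genes were called lower. The list median in the mean was -0.33, with 16 of 21 below 0. Fosl1, an AP-1 subunit, fell by 1.37 in control (adjusted p = 0.0213) and by 1.31 in Pparg-cKO (adjusted p = 0.0144), and Bhlhe40, a transcriptional repressor, was called in control (adjusted p = 0.0334) and in Pparg-cKO (-1.07, adjusted p = 0.0289). The other called genes were Fos, Egr1, Egr2, Ier3, Myc, Phlda1, Dusp4 and Dusp5, with mean changes from -1.15 for Phlda1 to -0.37 for Dusp5. Many receptors other than those for FGF act through ERK, and which input these genes followed was not tested.

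Cell type markers moved with the medium too. In the mean of both genotypes 5 of 5 smooth muscle, 4 of 5 endothelial and 4 of 7 urothelial markers were higher, and 3 of 5 leukocyte and 3 of 5 kidney markers (Umod, Slc12a1 and Nphs1) were lower. Over all genes 13.5% were called there. The 4 urothelial ones were the uroplakin genes Upk1a, Upk1b, Upk2 and Upk3a (0.47 to 1.67). Krt5, Trp63 and Cdh1 of that list were not called, at -0.71, -0.30 and -0.185. Of the 5 fibroblast and lamina propria markers, Col1a1 was higher and Aldh1a2 lower. The summed log2 level of the kidney markers was 8.80 to 9.27 in control with DMSO and 8.78 to 8.81 with purmorphamine, and 10.06 to 10.20 then 8.84 to 8.85 in Pparg-cKO. The summed log2 level of the leukocyte markers was 17.27 to 17.55 in control with DMSO and 16.69 to 17.15 with purmorphamine, and 17.28 to 17.54 then 16.89 to 16.97 in Pparg-cKO. That of the smooth muscle markers was 17.67 to 18.13 in control with DMSO and near 18.61 with purmorphamine, and 17.82 to 17.98 then 18.61 to 18.83 in Pparg-cKO. Their part in the changes of the response genes was not tested.

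Of the 13 ligands tested, 2 were called in the mean of both genotypes, Fgf9 and Fgf10, both lower, a share near the 13.5% of all genes called there. Fgf9, a ligand that signals between epithelium and mesenchyme, had control levels of 10.36 and 10.46 with DMSO and 9.22 and 9.40 with purmorphamine. In Pparg-cKO the levels were 10.16 and 9.92 with DMSO and 9.80 and 9.86 with purmorphamine. The control pools with purmorphamine stood apart from the other 6, which lay between 9.80 and 10.46. Fgf9 fell by 1.10 in control (SE 0.12, adjusted p = 0.0392), and the change in Pparg-cKO was -0.21 (interval -0.52 to 0.10, adjusted p = 0.413). The difference between these responses was 0.89 (SE 0.17, unadjusted p = 0.00326 by limma) with an adjusted p of 1, so the genotypes are not shown to differ. Without either control array the control call was lost.

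Fgf10, a mesenchymal ligand of FGFR2, gave another pattern. Control levels were 11.98 and 12.07 with DMSO and 11.91 and 11.85 with purmorphamine, and Pparg-cKO levels were 11.74 and 11.80 with DMSO and 10.44 and 11.12 with purmorphamine. The 2 Pparg-cKO pools with purmorphamine were the lowest, and they differed from each other by more than any other pair of one group. With purmorphamine, Fgf10 was 1.10 lower in Pparg-cKO than in control (log2 change -1.10, SE 0.20, adjusted p = 0.0443), the 1 member called in that comparison, where 2.87% of all genes were. Within Pparg-cKO the change with purmorphamine was -0.99 (SE 0.17), with an adjusted p that rounds to 0.05 and lay just under the threshold, and in control -0.14 (adjusted p = 0.738). Fgf10 passed the fold rule in both comparisons, and 6.6% of all genes passed it for purmorphamine in Pparg-cKO. The mean over both genotypes was -0.57 (adjusted p = 0.0463). That call was lost in 9 of 14 alternative settings, where the change ran from -0.72 to -0.41. The difference of the responses was -0.85 (unadjusted p = 0.0174 by limma, adjusted p of 1).

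The call against control was lost with either control array left out (adjusted p = 0.216 and 0.279) or the male Pparg-cKO array left out, when the change was -0.77 (adjusted p = 0.162). It was also lost with the replicate block and a dye term (adjusted p = 0.0964) and with the 4 purmorphamine channels alone (adjusted p = 0.132). The call within Pparg-cKO was lost with any 1 array left out. The male Pparg-cKO pool with purmorphamine, lowest for Fgf10, also had the lowest summed log2 level of the 5 fat markers, 14.15. The other Pparg-cKO pools had 16.09 to 16.58, and the control pools had 17.12 to 17.67. Of the 5 markers, Adipoq, Plin1, Fabp4 and Cidec were above background in all pools and Lep was not tested. None of the 4 was called in any comparison. The part of fat cells in the Fgf10 result was not tested.

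**Figure D2:**
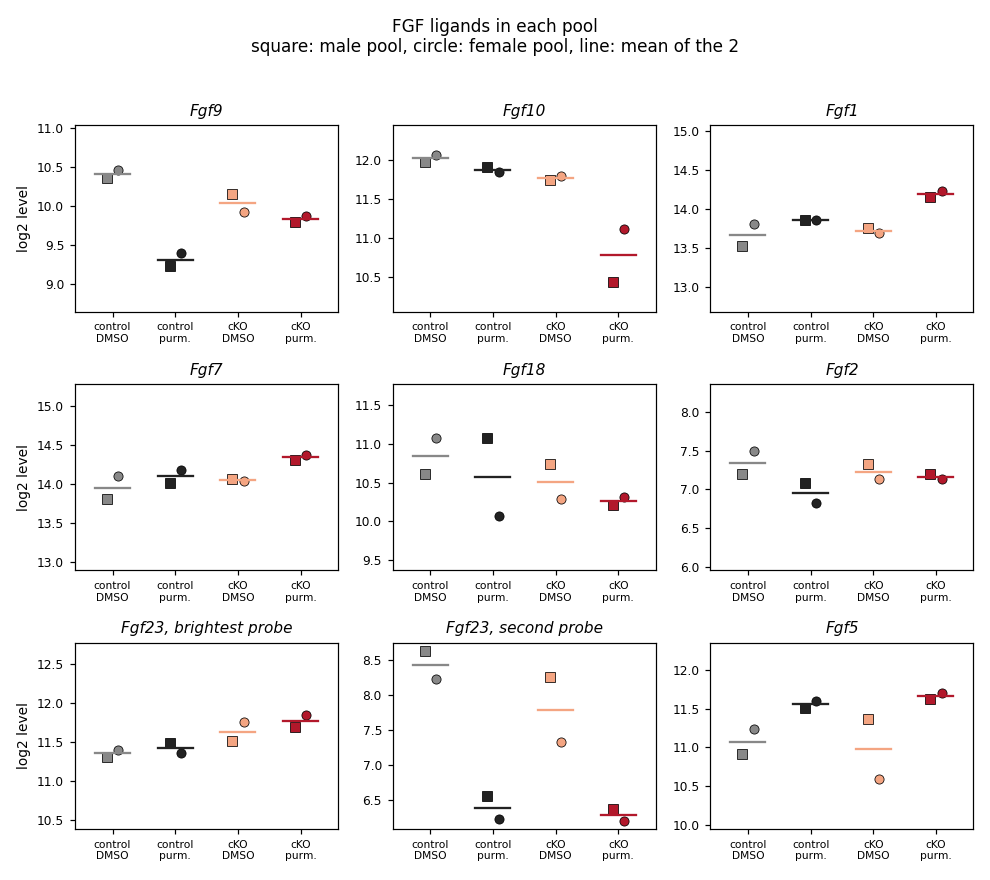
Log2 level of the FGF ligands in each pool by genotype and medium, 1 square per male and 1 circle per female pool and a line at their mean, with both probes of Fgf23. Fgf9 is lowest in the 2 control purmorphamine pools and Fgf10 in the 2 Pparg-cKO purmorphamine pools.

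The other ligands were not called. Fgf1 levels were 13.52 and 13.81 with DMSO and 13.86 and 13.86 with purmorphamine in control, and 13.75 and 13.69 then 14.16 and 14.24 in Pparg-cKO. The change in the mean of both genotypes was 0.34 (interval 0.12 to 0.56, adjusted p = 0.0675). Through a second probe, Fgf1 passed the fold rule for Pparg-cKO over control with purmorphamine (0.66 on that probe, adjusted p = 0.162).

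Fgf7, a mesenchymal ligand of the epithelial form of FGFR2, had control levels of 13.80 and 14.10 with DMSO and 14.02 and 14.18 with purmorphamine, and Pparg-cKO levels of 14.06 and 14.04 then 14.31 and 14.38. Its mean change was 0.22 (interval 0.03 to 0.41, adjusted p = 0.122). Fgf18 had control levels of 10.61 and 11.08 then 11.07 and 10.06, and Pparg-cKO levels of 10.73 and 10.29 then 10.21 and 10.31, with a mean change of -0.26 and a wide interval from -0.92 to 0.40. Fgf2 had control levels of 7.19 and 7.50 then 7.09 and 6.82, and Pparg-cKO levels of 7.33 and 7.14 then 7.19 and 7.13, with a mean change of -0.23 (interval -0.53 to 0.06). In each of these 3 genes the purmorphamine pools overlapped the DMSO pools. Fgf5 was 0.58 higher in the mean (interval 0.18 to 0.98, adjusted p = 0.0749), not past the threshold. The 13 ligands ranged from -0.37 to 0.28 for the loss of Pparg with DMSO, with 0 called by limma, 1 at an unadjusted p under 0.05 and 0 by the fold rule. Of all 20229 genes, 3.68% were called, 1619 were higher and 1570 lower at that unadjusted p, and 4.2% passed the rule.

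Fgf23, a hormone-like ligand, shows that a gene name can rest on probes that disagree. The first 30 bases of each Fgf23 and Fgfr4 probe are given 5′ to 3′ to show how they differ, and capitals mark a run of CA dinucleotides. The positions of the 60-base probes are in mm9, as the file headers give them.
Fgf23, brightest probe, chr6:127030758-127030817: cCACACACACACACACACACAtacatgtaa
Fgf23, second probe, chr6:127031289-127031348: tttagtgaaagcctccgctagcaggttgac
Fgfr4, brightest probe, chr13:55270033-55270092: gagagacgagaagcctgtgggaacgacaga
Fgfr4, second probe, chr13:55269212-55269271: gcctacttttaagcagctggtggaagctct
The brightest Fgf23 probe holds a CA run of 20 bases, and in the other 65 member probes the longest such run was 7. That probe read 11.31 and 11.40 with DMSO and 11.49 and 11.36 with purmorphamine in control, and 11.51 and 11.75 then 11.70 and 11.85 in Pparg-cKO, with changes of 0.07 and 0.14.

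The second Fgf23 probe read 8.63 and 8.23 with DMSO and 6.57 and 6.23 with purmorphamine in control, and 8.26 and 7.33 then 6.38 and 6.21 in Pparg-cKO. Every purmorphamine pool lay below every DMSO pool, and the probe was above background in 5 of the 8 pools. Its change was -2.03 in control (SE 0.20, adjusted p = 0.0349), where 1 purmorphamine pool was above background. In Pparg-cKO neither purmorphamine pool was, so the probe was at least 2.53-fold lower there (adjusted p = 0.0316). This is the mean of the DMSO pools against, per array, the higher of the lowest signal well above background and the probe's own. The control call was lost without either control array. Which probe reports the Fgf23 transcript was not tested, and Fgf23 is not counted among the called members, which follow the brightest probe.

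Of the 5 receptor genes, Fgfr4 and Fgfrl1 were called for the loss of Pparg with DMSO. With the intracellular Fgf12, 3 of 34 members were called there, where 3.68% of all genes were. By the fold rule the members were Fgfr4 and Spry4, 2 of 34, where 4.2% of all genes passed. Across the comparison the member median was 0.02, and that of all genes was 0.00.

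Fgfr4 encodes a receptor known for its roles in liver and muscle. Its levels in control were 9.61 and 9.61 with DMSO and 9.69 and 9.69 with purmorphamine, and in Pparg-cKO 10.25 and 10.55 with DMSO and 9.42 and 9.54 with purmorphamine. The 2 Pparg-cKO pools with DMSO stood above the other 6. Fgfr4 was 0.79 higher in Pparg-cKO with DMSO (SE 0.12, adjusted p = 0.0183) and fell by 0.92 with purmorphamine in Pparg-cKO (SE 0.11, adjusted p = 0.0238). Those comparisons share the Pparg-cKO pools with DMSO. The change with purmorphamine in control was 0.08 (interval -0.19 to 0.35). In the mean of both genotypes the change was -0.42 (adjusted p = 0.0305 by limma). That call was lost in 9 of 14 alternative settings, where the change ran from -0.46 to -0.22. The difference between the genotypes' responses was -0.998 (interval -1.38 to -0.62, unadjusted p = 0.00109 by limma, adjusted p = 0.983), with 0% of all genes called in that comparison. At an unadjusted p under 0.05, 319 genes were higher and 351 lower in that comparison, with 1 member (Fgf9) among the higher and 2 (Fgf10 and Fgfr4) among the lower. By the fold rule 239 genes passed, of which 2 were members (Fgf9 and Fgfr4).

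The second Fgfr4 probe gave 7.73 and 7.82 then 7.87 and 7.90 in control and 7.98 and 8.28 then 7.98 and 8.01 in Pparg-cKO, with changes of 0.36 (adjusted p = 0.198) for the loss of Pparg and -0.14 (adjusted p = 0.594) for purmorphamine in Pparg-cKO. With the replicate number as a block and a dye term, the adjusted p for the loss of Pparg was 0.053, and with the 4 DMSO channels alone 0.0899. The call was also lost without the female Pparg-cKO array (0.64, adjusted p = 0.156) or either control array (adjusted p = 0.148 and 0.159), and the call for purmorphamine without either Pparg-cKO array (adjusted p = 0.0565 and 0.211). The summed level of the 5 kidney markers was also highest in the Pparg-cKO pools with DMSO. Of the 5, 3 (Umod, Slc12a1 and Nphs1) were higher in Pparg-cKO with DMSO, by 2.37, 1.40 and 1.14, and lower with purmorphamine in Pparg-cKO, at -2.25, -1.51 and -1.04. Aqp2 (-0.10) and Slc34a1 (-0.22) were not higher in Pparg-cKO with DMSO, and they were called in neither comparison. Only 1 of the 5 was above background in all pools. Their list's summed level was 10.06 to 10.20 in Pparg-cKO with DMSO and 8.78 to 9.27 in the other 6 pools. The part of kidney tissue in the Fgfr4 result was not tested.

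Fgfrl1 encodes a receptor-like protein without the tyrosine kinase domain. Its control levels were 12.87 and 12.96 with DMSO and 12.95 and 12.73 with purmorphamine, and its Pparg-cKO levels were 12.34 and 12.27 with DMSO and 12.22 and 12.43 with purmorphamine. All 4 Pparg-cKO pools were below all 4 control pools. How many of all genes separated the genotypes in this way was not counted. Fgfrl1 was lower in Pparg-cKO with DMSO by 0.61 (log2 change -0.61, SE 0.12, adjusted p = 0.0491), and with purmorphamine the change was -0.51 (adjusted p = 0.0898). The call was lost with any 1 array left out, with the replicate block and a dye term (adjusted p = 0.152) and with the 4 DMSO channels alone (adjusted p = 0.0919).

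Fgfr2, whose epithelial form receives FGF7 and FGF10, had control levels of 11.75 and 12.01 with DMSO and 12.21 and 12.04 with purmorphamine, and Pparg-cKO levels of 12.67 and 12.47 then 12.87 and 12.47. Every Pparg-cKO pool was above every control pool, but the difference of 0.69 with DMSO was not called (interval 0.29 to 1.09, adjusted p = 0.0909). The share of all genes with such a separation was not counted. The difference with purmorphamine was 0.54 (adjusted p = 0.171). The other Fgfr2 probe, which overlaps the first in the genome, gave 0.67 with DMSO (adjusted p = 0.0703).

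Fgfr1, the receptor of many mesenchymal cells, read 13.27 and 13.49 then 13.66 and 13.26 in control and 13.54 and 13.40 then 13.58 and 13.67 in Pparg-cKO. Fgfr3 read 13.27 and 13.42 then 13.20 and 13.01 in control and 13.43 and 13.35 then 13.39 and 13.18 in Pparg-cKO. Neither was called in any comparison. Their intervals for the mean purmorphamine effect were -0.21 to 0.44 for Fgfr1 and -0.40 to 0.06 for Fgfr3.

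**Figure D3:**
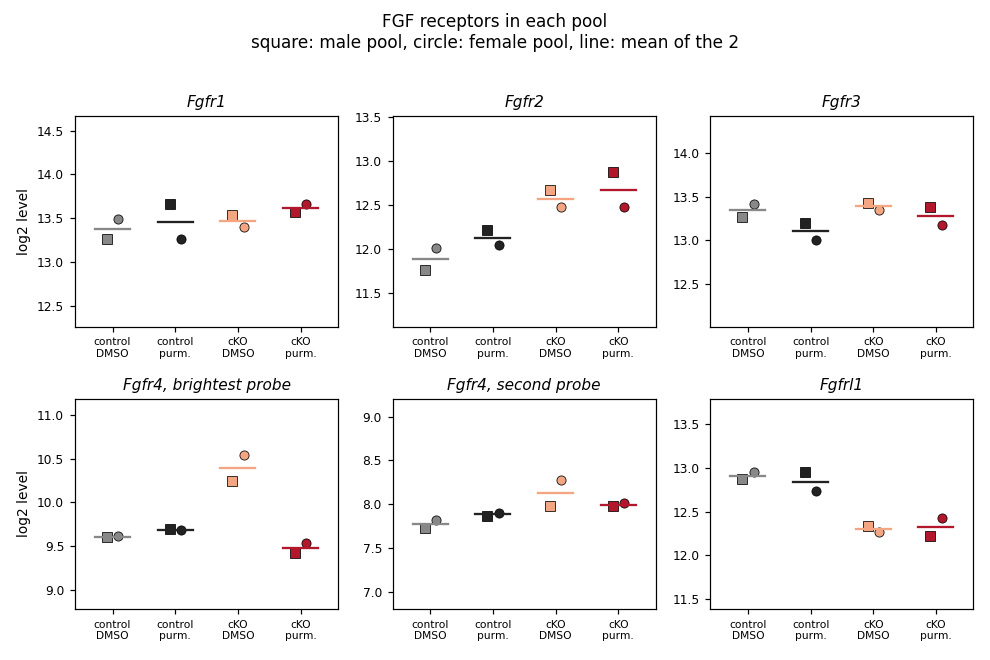
Log2 level of the FGF receptor genes in each pool by genotype and medium, 1 square per male and 1 circle per female pool and a line at their mean, with both probes of Fgfr4. The brightest Fgfr4 probe is highest in the 2 Pparg-cKO pools with DMSO, and the Fgfrl1 pools of Pparg-cKO sit below those of control.

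The intracellular relatives Fgf11 to Fgf14 are not secreted and act on sodium channels and the cytoskeleton rather than on FGF receptors. Fgf12 read 6.76 and 6.96 with DMSO and 6.93 and 6.99 with purmorphamine in control, and 7.86 and 7.55 then 7.39 and 7.36 in Pparg-cKO. All 4 Pparg-cKO pools were above all 4 control pools, an order whose share among all genes was not counted. Fgf12 was 0.84 higher in Pparg-cKO with DMSO (SE 0.13, adjusted p = 0.0201), and a dimmer probe gave 0.97 (adjusted p = 0.00625). That dimmer probe was above background in 7 of 8 pools, with 1 of the control pools with DMSO among them. Another Fgf12 probe, not tested, read 6.05 to 6.32 and was above background in 0 of 8. Fgf12 is thus a dim gene here, and it did not pass the fold rule. The call on the brightest probe was lost with any 1 array left out (0.69 to 1.01, adjusted p from 0.0656 to 0.158), with the replicate block and a dye term (adjusted p = 0.0822) and with the 4 DMSO channels alone (adjusted p = 0.0982). The summed level of the kidney markers, given above for Fgfr4, was also highest in the Pparg-cKO pools with DMSO. Aqp2 and Slc34a1 of that list were not higher there, and the part of kidney tissue was not tested. Fgf11, Fgf13 and Fgf14 were not called in any comparison, nor were Fgfr1op and Fgfr1op2.

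For the loss of Pparg with DMSO, 0 of 10 response genes were called by limma, at a median of 0.01, with 3 lower and 0 higher at an unadjusted p under 0.05 and 1 (Spry4) passing the fold rule. Of all 20229 genes, 3.68% were called, 1570 were lower and 1619 higher at that unadjusted p, and 4.2% passed the rule. The changes of Spry4 and Etv5 were -0.64 (interval -1.04 to -0.23, adjusted p = 0.121) and -0.48 (interval -0.77 to -0.18, adjusted p = 0.114). Dusp6 differed by 0.20 (interval -0.27 to 0.67) and Etv4 by 0.53 (interval -0.30 to 1.35).

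**Figure D4:**
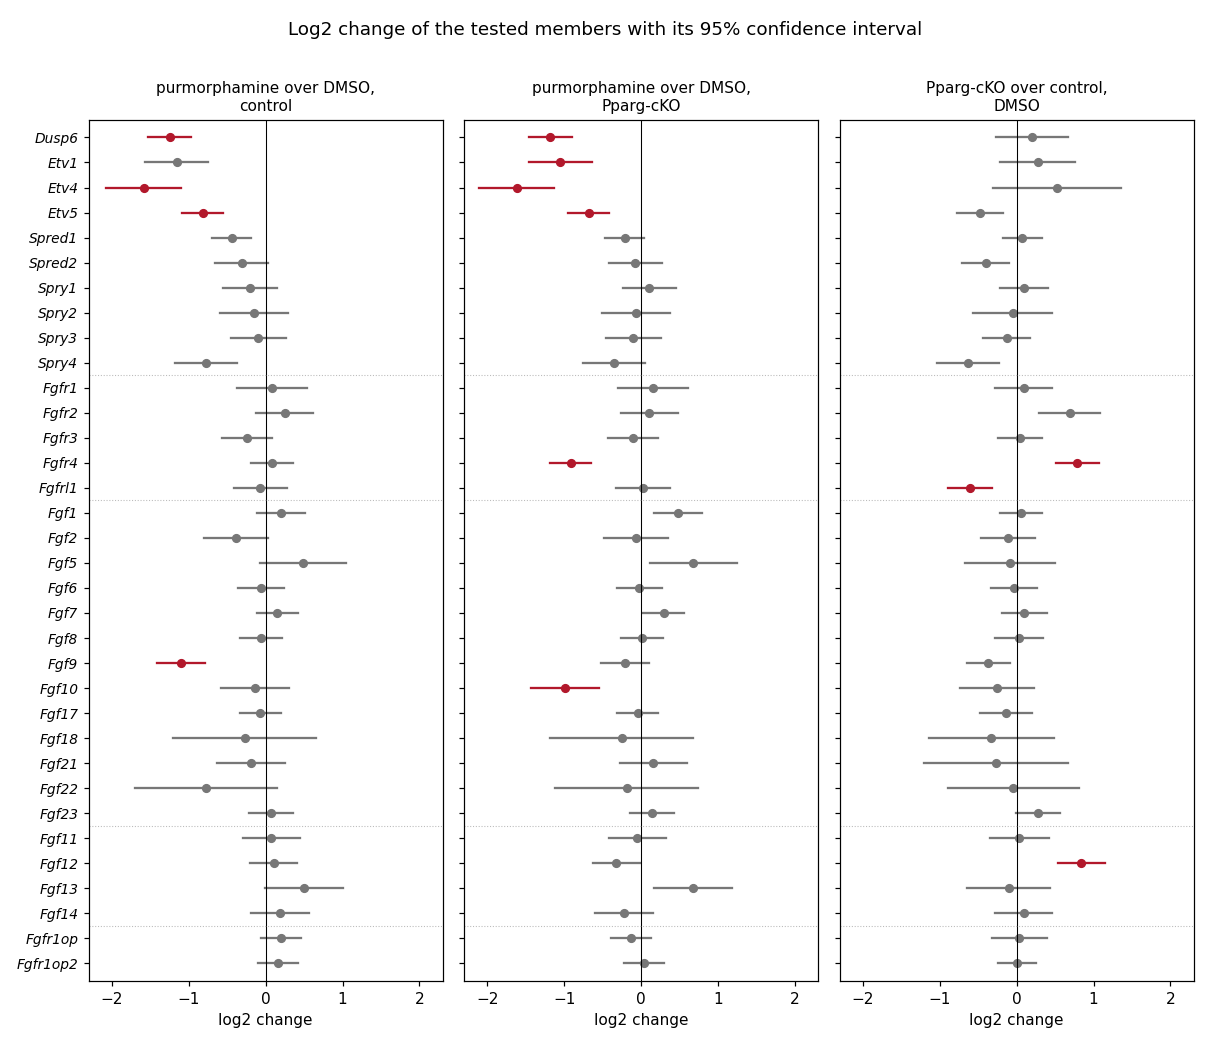
Log2 changes with 95% intervals of the 34 tested members for purmorphamine in control, purmorphamine in Pparg-cKO and loss of Pparg with DMSO, with called members in red. Most members lie near 0, and the called ones with purmorphamine are all lower.

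Genes that carry the FGF signal from receptor to ERK were not called by limma for purmorphamine in either genotype or between genotypes in either medium, 0 of 20 in each. At an unadjusted p under 0.05 there were 3 higher and 1 lower in control and 3 higher and 0 lower in Pparg-cKO with purmorphamine, and 2 lower in Pparg-cKO than in control in each medium. Of all 20229 genes, 1978 were higher and 1989 lower in control at that p, and 1994 and 2502 in Pparg-cKO. Lower in Pparg-cKO than in control were 1570 with DMSO and 1805 with purmorphamine. The fold rule passed 0 to 2 of the 20, and 849 to 1335 of all genes in these comparisons. In the mean of both genotypes the adaptors Frs2 (0.33, adjusted p = 0.0455) and Gab1 (0.46, adjusted p = 0.0238) were higher, and the list median was 0.08. These were 2 of the 20, where 13.5% of all genes were called. The calls of this list, and of the lists below, were not rechecked with an array left out. Among 22 coreceptors, binding proteins and membrane modulators, Gpc3, a heparan sulfate proteoglycan, rose by 2.12 in control (adjusted p = 0.0274) and 2.84 in Pparg-cKO (adjusted p = 0.0125). Fgfbp1, a secreted carrier of FGFs, fell by 3.02 in control (adjusted p = 0.023) and changed by -2.41 in Pparg-cKO (adjusted p = 0.0185). In the mean, 6 of the 22 were higher and 2 lower, where 13.5% of all genes were called and 7.52% called lower. Il17rd, which encodes an inhibitor of FGF signaling, rose by 0.74 in Pparg-cKO (adjusted p = 0.04).

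Heparan sulfate synthesis and editing genes, 17 tested of 20, gave 1 call for the loss of Pparg in each medium. Over all genes 3.68% were called with DMSO and 2.87% with purmorphamine. Sulf2, an extracellular sulfatase that edits heparan sulfate, was lower in Pparg-cKO with DMSO (log2 change -0.92, SE 0.13, adjusted p = 0.0159) and with purmorphamine (-0.98, adjusted p = 0.0183). Hs3st1, a sulfotransferase, was lower with purmorphamine in Pparg-cKO (-0.66, adjusted p = 0.0477), the 1 called there, where 4.66% of all genes were. Of the ERK-induced list, Dusp2 was higher (1.14, adjusted p = 0.0246) and Dusp4 lower (-1.04, adjusted p = 0.0446) in Pparg-cKO with DMSO, both of them phosphatases of MAP kinases.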

How the data were processed

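Ureters of newborn mice were cultured, pooled by sex and genotype, and RNA was labeled with AlexaFluor dyes and hybridized to 2-colour Agilent arrays by the authors. Per the file headers, Feature Extraction 12.2.0.7 gave the spot intensity values (the submitters' processing notes name 10.7.3.1), and positions are in mm9. The deposited value table holds a signed fold change per array, a score made by the authors, with a median of 1 on each array and a correlation of its log2 with the log2 ratios here of 0.97 to 0.977. It served as an alternative. The log10 ratio of red over green that Feature Extraction wrote, per the file headers, only checked the direction (lowest correlation with the log2 ratios here 0.923).

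Mean signals were corrected with normexp (offset 50) and loess in limma 3.58.1 (R 4.3.3). Purmorphamine effects were fitted to log2 ratios turned the same way, with a coefficient per genotype. Genotypes were never on 1 array, so they were compared by a separate-channel fit after Aquantile normalization (intraspot correlation 0.0587, from 4000 probes). The correlation could not be estimated on 3 arrays and was kept when an array was left out. The scripts were tested on simulated data. The rule of the methods used processed signals scaled to a 75th percentile of 1500 with a floor of 15, an intensity above 100 and 1.5-fold in both replicates, and it has no test. Members named with values were those called or passing that rule, and the main receptors, response genes and ligands whatever their values. The members and gene lists were chosen with earlier results of these data known. The number of arrays limits the precision. Alternatives were other background, normalization, filter and probe choices, the replicate number as a block, and each array left out. Their results were taken for the members only, so calls of other listed genes and of cell type markers were not rechecked.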

Additional observations from a re-analysis of the deposited data

How the results depend on the processing

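No called change reversed. Fgf23, not called on its brightest probe, was lower with the mean of its probes, at -0.98 in control, -0.68 in Pparg-cKO and -0.83 in the mean of both genotypes, and lower by the value table through its second probe (0.069, 0.20 and 0.14 there on the brightest). In the mean of both genotypes Fgf5 and Fgf13 were called higher with median centring and without the male Pparg-cKO array, and Fgf1 and Fgf13 in the separate-channel fit, and Fgf5 was called higher in Pparg-cKO without that array (1.11). Of 23 calls, 5 (Dusp6, Etv1, Etv4, Etv5 and Fgf9 in the mean of both genotypes) held in every fitted alternative. For the loss of Pparg with DMSO, the 3 called members became 0 with the 4 DMSO channels alone and 0 with the replicate block and a dye term, and 0 to 1 with 1 array left out. With purmorphamine the 1 called member became 0 with the 4 channels alone, 0 without a filter on dim probes, 0 with processed signals, 0 with the replicate block and a dye term, 2 by the rule of the methods, and 0 to 1 with 1 array left out. For purmorphamine in control, the 4 became 0 with median centring, 0 without a filter, 0 with processed signals, 7 by the value table, and 0 to 5 with 1 array left out. In Pparg-cKO the 6 became 2 without a filter, 3 with processed signals, and 0 to 4 with 1 array left out. The difference between genotypes stayed at 0 except for 2 by the rule of the methods. In the mean of both genotypes, the 9 became 5 with processed signals, 4 by the rule of the methods, 5 by the value table, and 5 to 7 with 1 array left out. The cause of these changes was not tested, but fewer arrays leave fewer degrees of freedom.

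By the labels, the replicate numbers mark sex and dye orientation. Whether pools of the same number shared anything else is not given. Deviations of the same number correlated at -0.171 over the DMSO pools, 0.482 over the purmorphamine pools and 0.157 over the log2 ratios. With the replicate block, 3 members were called for purmorphamine in control, 5 in Pparg-cKO, 7 in the mean and 0 for the difference. In alternatives chosen after seeing the data, the 4 DMSO channels alone with the replicate block gave 0 called members and with the crossed pairing 0. Counting any tested probe added Fgf23 and no other member. Probes near background limit what can be seen of the dim ligands.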
